A study of Mus musculus with 4 samples.

Results

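The respiratory chain genes of the mouse nucleus were examined by complex in naive CD8 T cells from the spleen, comparing cells that lack Klf13 with cells that have it. The members were the genes with a single annotated symbol that begins with Nduf, Uqcr, Cox4 to Cox8 or Atp5, or that is Sdha, Sdhb, Sdhc, Sdhd, Cyc1 or Cycs. A gene with several probe sets was represented by the brightest of them on average. The rule found 91 of the 19938 genes measured, and it used no difference between the groups. They were 34 subunits of complex I, 7 assembly factors of complex I, 4 subunits of complex II, 9 of complex III, cytochrome c (Cycs), 11 subunits of complex IV, 8 tissue isoforms of complex IV subunits and 17 subunits of complex V. Ndufa4 carries a complex I name but was counted with complex IV, where the protein is found.

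All cells came from mice of the BALB/c strain and had been sorted by flow cytometry. The Klf13 KO group (genotype KLF13 KO, 2 arrays) and the WT group (wild type, 2 arrays) received no treatment that the labels name. The age of the mice, the deleted part of Klf13 and the number of animals behind a sample are not given. RNA of each sample was measured on an Affymetrix array of a single colour, with a log2 value for every probe set. Nothing states that the arrays of a group come from separate animals, so the spread behind the p-values may be technical.

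The respiratory chain sits in the inner mitochondrial membrane. Complex I takes electrons from NADH and complex II from succinate; both pass them through ubiquinone to complex III, from there through cytochrome c to complex IV and on to oxygen. Complexes I, III and IV pump protons, and complex V, the ATP synthase, uses the gradient to make ATP. Naive T cells are quiescent and draw most of their ATP from this pathway, and memory CD8 T cells are known for a large respiratory reserve. Klf13 is a zinc-finger factor of the SP/KLF family, whose members bind GC-rich and CACCC elements of promoters.

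As upstream sequence bears on a family of promoter-binding factors, the 250 bases before the annotated start, without any base after it, were searched for motifs and are shown for the member with the smallest limma p in complexes I, II and V, for cytochrome c, and for Atp5g2, the member of complex V with the largest difference in the opposite direction. They are RefSeq sequences of the build GRCm38.p6, written 5′ to 3′ on the strand of the gene. Capitals mark 3 letter strings on either strand, the GC box GGGCGG, to which SP/KLF factors bind, and the strings TGCGCA and CATGCGC, which are parts of the site of NRF1, a known activator of respiratory genes, and which can overlap each other.
Cycs (chr6:50566570-50566819, minus strand): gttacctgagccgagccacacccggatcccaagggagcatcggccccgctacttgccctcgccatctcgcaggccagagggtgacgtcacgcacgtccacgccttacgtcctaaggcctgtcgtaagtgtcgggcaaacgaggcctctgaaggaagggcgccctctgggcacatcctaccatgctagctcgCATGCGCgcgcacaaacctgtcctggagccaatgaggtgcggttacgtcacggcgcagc
Atp5l (chr9:44920743-44920992, minus strand): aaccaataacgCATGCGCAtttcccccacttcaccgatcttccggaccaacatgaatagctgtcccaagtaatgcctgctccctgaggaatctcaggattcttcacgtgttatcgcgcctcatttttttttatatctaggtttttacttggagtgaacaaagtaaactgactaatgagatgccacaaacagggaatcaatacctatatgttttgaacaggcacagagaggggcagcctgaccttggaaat
Ndufb6 (chr4:40279422-40279671, minus strand): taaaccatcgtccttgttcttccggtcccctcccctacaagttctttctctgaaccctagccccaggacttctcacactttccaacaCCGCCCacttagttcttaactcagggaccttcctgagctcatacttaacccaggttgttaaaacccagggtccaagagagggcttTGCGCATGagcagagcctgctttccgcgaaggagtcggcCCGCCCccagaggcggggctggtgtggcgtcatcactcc
Sdha (chr13:74350241-74350490, minus strand): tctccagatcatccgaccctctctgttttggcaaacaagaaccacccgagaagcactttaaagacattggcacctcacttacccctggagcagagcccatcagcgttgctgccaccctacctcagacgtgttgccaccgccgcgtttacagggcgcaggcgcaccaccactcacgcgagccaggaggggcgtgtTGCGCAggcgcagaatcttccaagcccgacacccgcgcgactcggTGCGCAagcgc
Atp5g2 (chr15:102671048-102671297, minus strand): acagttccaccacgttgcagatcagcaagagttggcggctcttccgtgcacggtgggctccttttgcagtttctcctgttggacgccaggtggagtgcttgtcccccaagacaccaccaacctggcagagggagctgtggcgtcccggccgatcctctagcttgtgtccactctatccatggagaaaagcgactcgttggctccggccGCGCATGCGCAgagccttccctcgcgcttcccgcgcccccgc

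Of the 91 members, 74 had a promoter in the RefSeq table, with 79 windows in all. A GC box was in 29 of the 79 windows (36.7%), against 42.6% of the 21263 windows of protein-coding genes. The NRF1 strings were more frequent among the members: either was in 20 of the 79 windows (25.3%) against 9.66% of all windows. CCGGAAG, the core bound by ETS factors such as GABP, was in 13 of the 79 windows (16.5%) against 8.98% of all windows, and CACCC was in 36 of them (45.6%) against 54.2%. These shares describe letters in a window and were not tested.

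Klf13 itself checks the labels. It read 5.46 and 5.43 in the KO arrays and 7.01 and 7.15 in the WT arrays, a log2 fold change (KO minus WT) of -1.63 (SE 0.10, limma adjusted p = 3.75e-05). The sorted cells carried the CD8 chains, with Cd8a at 11.11 and 11.14 in the KO arrays and 11.25 and 11.12 in the WT arrays. The mean over 9 T cell markers was 9.67 and 9.74 in the KO arrays and 9.78 and 9.79 in the WT arrays, and 0 of the 9 passed the test. Markers of other cells were higher in the KO arrays. The mean over 15 neutrophil markers was 4.48 and 4.45 in the KO arrays against 3.81 and 3.92 in the WT arrays, and 4 of the 15 rose. These 4 were Mpo, Elane, Ctsg and Prtn3 (1.60 to 1.97), and the others, from -0.031 to 0.33, did not pass. The mean over 11 myeloid markers was 4.76 and 4.96 against 4.45 and 4.41 (4 rose), that over 10 B cell markers 5.60 and 5.64 against 5.29 and 5.36 (2 rose), and that over 12 pancreatic acinar markers 4.23 and 4.09 against 3.61 and 3.63 (4 rose). For 7 erythroid and platelet markers it was 5.65 and 5.73 against 5.49 and 5.46 (2 rose). In each of these lists of other cells 1 marker was lower in the KO arrays. Over all genes 2.25% passed in either direction. No array value is a true 0, so no marker could be called absent, and the part of these other cells in the results below was not tested. In sorted but bulk samples, fewer cells of a type and less RNA per cell cannot be told apart.

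Over the whole chain, transcripts were slightly lower in the KO arrays, and no member passed the test. The median log2 fold change of the 91 members was -0.11, a 1.08-fold difference, against 0.015 over all genes. Of the members, 73 were lower and 18 higher in the KO arrays, so 80.2% had a log2 fold change below 0, against 45.9% of all genes and 67.5% of genes of like level. At a limma adjusted p under 0.05, 0 of 91 passed, where 2.25% of all genes did. At an unadjusted limma p under 0.05, 13 of 91 (14.3%) passed, against 16.6% of all genes and 19.6% of genes of like level. Of the 13, 12 members were lower, where 8.75% of all genes were, and 1 was higher, where 7.85% of all genes were. The shares by direction were not computed for genes of like level. The 95% limma interval of the members other than these 13 included 0, and the SEs of the 91 members ran from 0.091 to 0.143. For 90 of the 91 members the 95% limma interval lay within a 1.5-fold change in either direction, the exception being Ndufaf6.

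A shift of this size was shared with other genes of like level. All genes were divided into 10 equal classes by mean level, and the median log2 fold change ran from 0.095 in the fifth class to -0.092 in the eighth and -0.074 in the class of the highest levels, which held 41 of the members. After the median of its own class was subtracted from each member, the median of the 91 was -0.033, and 59 of them (64.8%) were below 0. Both KO arrays were below both WT arrays for 48 members (52.7%), against 23.2% of all genes and 41.6% of genes of like level; the count was 30 after a further quantile normalization and 28 after cyclic loess. Both KO arrays were above both WT arrays for 7 members (7.69%), against 24.4% of all genes and 15.7% of genes of like level. Without KO replicate 1 this count was 20, and without WT replicate 2 it was 14. With an array left out groups separate more easily, and the count below rose too, to 54 and 56. These counts therefore do not compare with the shares above. The median of the members, -0.11, thus lay near that of genes of like level, -0.074.

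**Figure D1:**
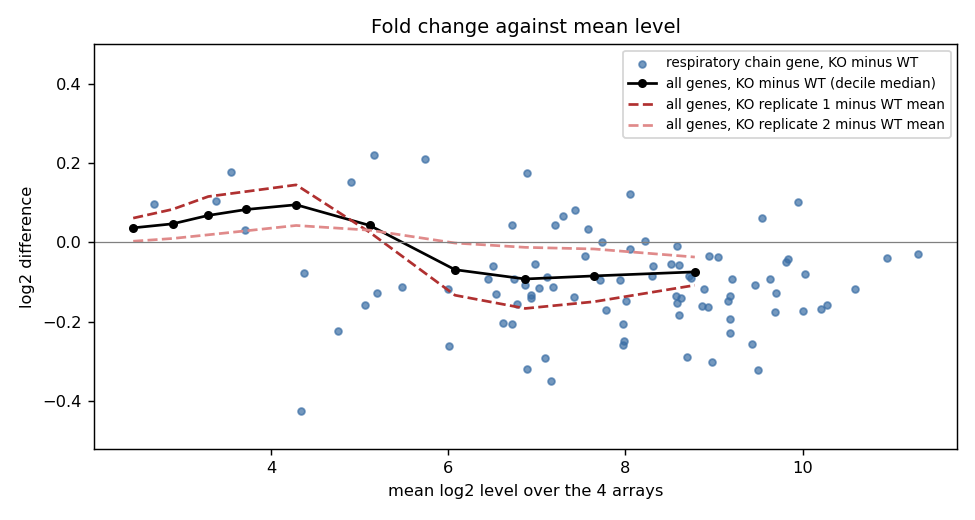
Log2 difference (y axis) against the mean log2 level over the 4 arrays (x axis); points are the 91 members, the black line joins the medians of all genes in 10 classes of level, and the dashed lines give the same medians for each KO array against the WT mean. Most members lie near the black line, which runs below 0 from a median level of 6.08 upwards, and the dashed line of KO replicate 1 lies farther from 0 there than that of KO replicate 2.

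The KO arrays did not contribute equally. Against the WT mean of each gene, the median member was -0.14 in KO replicate 1 and -0.069 in KO replicate 2, while all genes of the highest class had medians of -0.11 and -0.037. KO replicate 1 was below KO replicate 2 for 65 of the 91 members, and WT replicate 1 was below WT replicate 2 for 53. KO replicate 1 was below WT replicate 1 for 75 members and below WT replicate 2 for 76, whereas KO replicate 2 was below them for 58 and 67. The upper quartile of the gene values was 6.76 in KO replicate 1, against 6.91 in KO replicate 2 and 6.92 in both WT arrays. Without KO replicate 1 the median of the members was -0.069, a change of over 1.5 times.

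**Figure D2:**
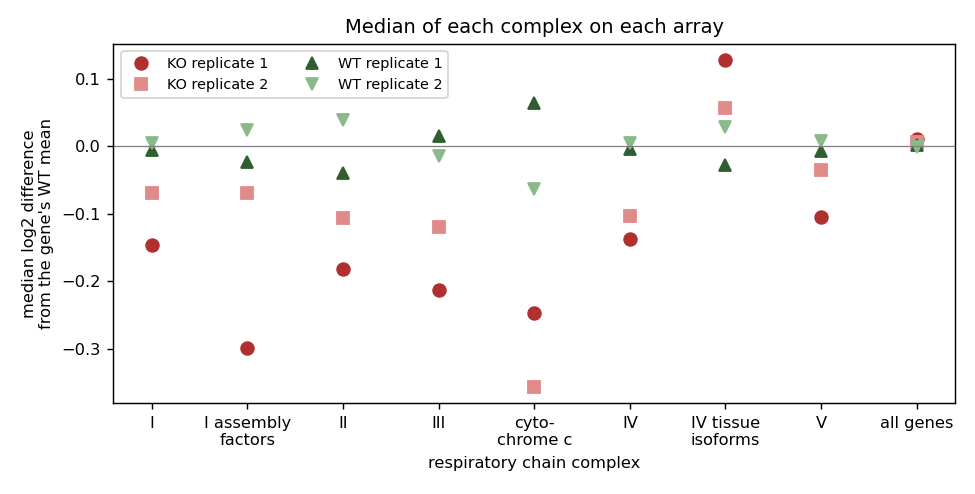
Median over the members of each complex of the log2 difference from the gene's WT mean (y axis), by complex (x axis), for each of the 4 arrays; all genes are at the right. In complexes I to V both KO arrays lie below both WT arrays, and the WT medians of these complexes are at most 0.039 from 0.

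By complex, the median log2 fold change was -0.10 for complex I, -0.14 for complex II, -0.16 for complex III, -0.090 for complex IV and -0.080 for complex V. The medians for genes of like level, each the median over the members of their class medians, lay between -0.084 and -0.074. Complexes V and IV thus lay nearest to the level trend and complex III farthest from it. With the class medians subtracted, the values were -0.031, -0.062, -0.087, -0.016 and -0.0060 in the same order. In complexes II, III and IV all members measured were lower in the KO arrays (4, 9 and 11), and in complexes I and V 27 of 34 and 13 of 17 were. Of genes of like level, 73.3%, 72.0% and 73.6% were lower for complexes II, III and IV, and 69.6% and 73.6% for I and V. Under cyclic loess Cyc1 of complex III and Cox8a, Ndufa4, Cox6b1 and Cox7a2l of complex IV were above 0. Without KO replicate 1 the median of complex V was -0.035 and without WT replicate 2 it was -0.049, while without KO replicate 2 that of complex IV was -0.14. The complexes hold few genes and their members share the same 4 arrays, and the difference between complexes was not tested.

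**Figure D3:**
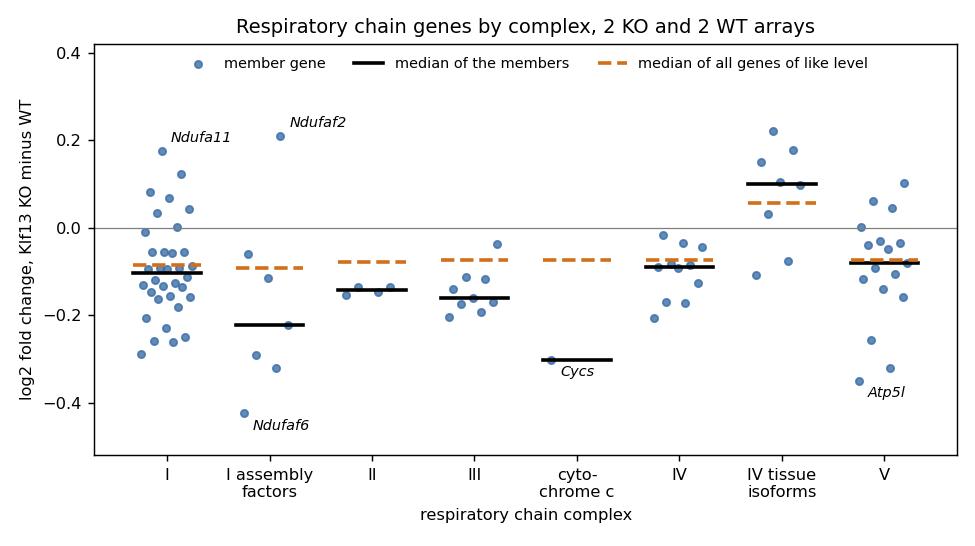
Log2 fold change, KO minus WT (y axis), of each member by complex (x axis). Black bars are the medians of the members. Dashed bars are the medians, over the members, of the all-gene medians of their level classes. The bars nearly coincide for complexes I, IV and V, and the members with the lowest values are Ndufaf6, Atp5l, Atp5md, Ndufaf4 and Cycs.

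The catalytic core of complex I takes electrons from NADH at a flavin and hands them along iron-sulfur clusters to ubiquinone. All 6 core subunits measured were lower in the KO arrays (under cyclic loess and further quantile normalization Ndufv1 was above 0), with a median of -0.13. In 5 of them both KO arrays were below both WT arrays, as in 48.0% of genes of like level and 23.2% of all genes. Ndufs3, a subunit of the arm that connects NADH oxidation with the membrane, read 8.99 and 9.14 in the KO arrays and 9.30 and 9.29 in the WT arrays (log2 fold change -0.23, SE 0.096, limma adjusted p = 0.270). Its groups did not overlap, and its second probe set gave -0.24. Ndufs1, which holds several of the iron-sulfur clusters, read 8.81 and 8.89 against 9.02 and 9.00 (-0.16). The flavin subunit Ndufv1 read 8.22 and 8.33 against 8.32 and 8.35 (-0.059), so its groups overlapped. Ndufv2, Ndufs7 and Ndufs8, which carry further clusters, differed by -0.14, -0.12 and -0.095.

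The 28 accessory subunits of complex I, which surround and stabilise the core, had a median of -0.093, with 21 lower and 7 higher. The smallest p-values were those of Ndufb6, Ndufb3 and Ndufa3, all of the membrane arm. Ndufb6, whose promoter with its GC boxes is printed above, read 8.47 and 8.64 in the KO arrays and 8.89 and 8.80 in the WT arrays (-0.29, SE 0.10, limma adjusted p = 0.194). Ndufb3 read 5.90 and 5.85 against 6.18 and 6.09 (-0.26). Ndufa3 read 7.88 and 7.79 against 8.05 and 8.14 (-0.26). In all of them the groups did not overlap, and none passed the test. Both KO arrays were below both WT arrays for 12 of the 28 accessory subunits (42.9%). The share was 41.6% of genes of like level and 23.2% of all genes.

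The highest values among the accessory subunits were those of Ndufa11, a membrane subunit with 6.94 and 7.02 in the KO arrays against 6.86 and 6.74 in the WT arrays (0.18, SE 0.096, limma adjusted p = 0.407), and of Ndufs4. Ndufs4, a subunit needed for a stable NADH-oxidising module, read 7.96 and 8.27 against 7.99 and 7.99, so its difference of 0.12 came from KO replicate 2 alone. Ndufa2 differed by 0.081, with both KO arrays above both WT arrays, and by -0.0050 with median centring. Ndufab1, the mitochondrial acyl carrier protein, and Ndufb11 were the accessory subunits nearest to 0, at 0.00089 and -0.0098. The dimmer probe set of Ndufb11 gave 0.029, which made it the only member with several probe sets whose signs differed. Counted by name, the 13 Ndufa subunits, the 9 Ndufb subunits and the 7 Ndufs subunits had medians of -0.094, -0.13 and -0.095.

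Complex I is built from modules with the help of assembly factors, which are not part of the finished enzyme. Their 7 measured genes had the lowest median of the groups with more than 1 member, -0.22, or -0.20 with the class medians subtracted; they were described individually after their values had been seen. Ndufaf6 read 4.09 and 4.17 in the KO arrays and 4.71 and 4.39 in the WT arrays (-0.42, SE 0.12, limma adjusted p = 0.108). Ndufaf4 read 6.71 and 6.76 against 6.97 and 7.14 (-0.32, limma adjusted p = 0.143). Ndufaf1 read 6.94 and 6.95 against 7.21 and 7.26 (-0.29, limma adjusted p = 0.149). In these genes both KO arrays were lower than both WT arrays, though the WT arrays of Ndufaf6 differed from each other by more than the gap between its groups. Ndufaf2 went the other way, at 5.83 and 5.85 against 5.61 and 5.65 (0.21, limma adjusted p = 0.283). Ndufaf5, Ndufaf7 and Ndufaf3 differed by -0.22, -0.11 and -0.060. Of the 7 genes, 4 had both KO arrays below both WT arrays, against 33.5% of genes of like level and 23.2% of all genes. For 1 of the 7 both KO arrays were above both WT arrays, against 19.2% and 24.4%. The median rested in large part on KO replicate 1, without which it was -0.069; without WT replicate 2 it was -0.11.

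The other assembly genes, in lists that are not members, had similar signs. Of 10 further assembly factors of complex I, 9 were lower and 0 passed the test. Their median was -0.18, or -0.13 with the class medians subtracted, with Timmdc1 at -0.29, Tmem186 at -0.23 and Foxred1 at -0.24. Of 29 assembly factors of complexes II to V, 26 were lower and 0 passed (median -0.14, or -0.077 with the class medians subtracted). Uqcc3, an assembly factor of complex III, read 7.10 and 7.20 in the KO arrays and 7.59 and 7.42 in the WT arrays (-0.36, limma adjusted p = 0.112), and Sdhaf2, which attaches the flavin to complex II, and Atpaf2, which serves the F1 part of the ATP synthase, differed by -0.33 and -0.25.

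Complex II, which is also the succinate dehydrogenase of the citric acid cycle, has no mitochondrially encoded subunit. Its 4 genes had nearly the same log2 fold change, from -0.15 to -0.14. Sdha, the flavin subunit that oxidises succinate, read 9.12 and 9.09 in the KO arrays and 9.22 and 9.27 in the WT arrays (-0.14, SE 0.091, limma adjusted p = 0.504). The iron-sulfur subunit Sdhb read 7.32 and 7.38 against 7.43 and 7.54. Of the membrane anchors, Sdhc read 7.83 and 8.03 against 8.10 and 8.06, and Sdhd read 8.46 and 8.55 against 8.55 and 8.77. Only Sdhd of the 4 had groups that overlapped. Of genes of like level, 46.7% had both KO arrays below both WT arrays, as did 23.2% of all genes. With the class medians subtracted the 4 lay between -0.078 and -0.052.

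Complex III passes electrons from ubiquinol to cytochrome c. The Rieske iron-sulfur protein Uqcrfs1 read 6.44 and 6.58 in the KO arrays and 6.75 and 6.69 in the WT arrays (-0.20, SE 0.096, limma adjusted p = 0.331). The core protein Uqcrc1 read 9.56 and 9.64 against 9.79 and 9.77 (-0.18, limma adjusted p = 0.386), and the small subunit Uqcrb read 9.17 and 8.99 against 9.34 and 9.21 (-0.19, limma adjusted p = 0.393). These groups did not overlap, and 3 further members, Uqcrc2, Uqcrh and Uqcr10, were placed likewise. That made 6 of 9 with both KO arrays below both WT arrays, against 45.0% of genes of like level and 23.2% of all genes. Cyc1, the cytochrome c1 subunit that hands the electron to cytochrome c, differed least, at 9.01 and 9.04 against 9.11 and 9.02 (-0.036). It was the only member of complex III above the median of its level class.

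Cytochrome c carries the electron between complexes III and IV and triggers caspase activation when it leaves the mitochondrion. Cycs read 8.88 and 8.77 in the KO arrays and 9.19 and 9.06 in the WT arrays, a log2 fold change of -0.30 (SE 0.098, limma adjusted p = 0.164) with a 95% limma interval from -0.52 to -0.084. Its 2 dimmer probe sets were lower in the KO arrays as well. The second read 8.48 and 8.46 against 8.94 and 8.73 (-0.36). The third read 4.57 and 5.18 against 5.94 and 5.83 (-1.01), a 2.01-fold difference. The groups overlapped in none of the 3. Tested singly among the 21789 single-symbol probe sets, the third passed (limma adjusted p = 0.0186), as 2.12% of these probe sets did. Among all 35556 probe sets, of which 0.11% passed, 0 of the members' 118 probe sets did. Mammalian genomes hold processed copies of Cycs and of many small respiratory subunits, and probe sets that bind such copies or each other's targets make these single values uncertain. This uncertainty includes the brightest probe set of a gene, whose value is used here. The locus for which each probe set was made was not examined.

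**Figure D4:**
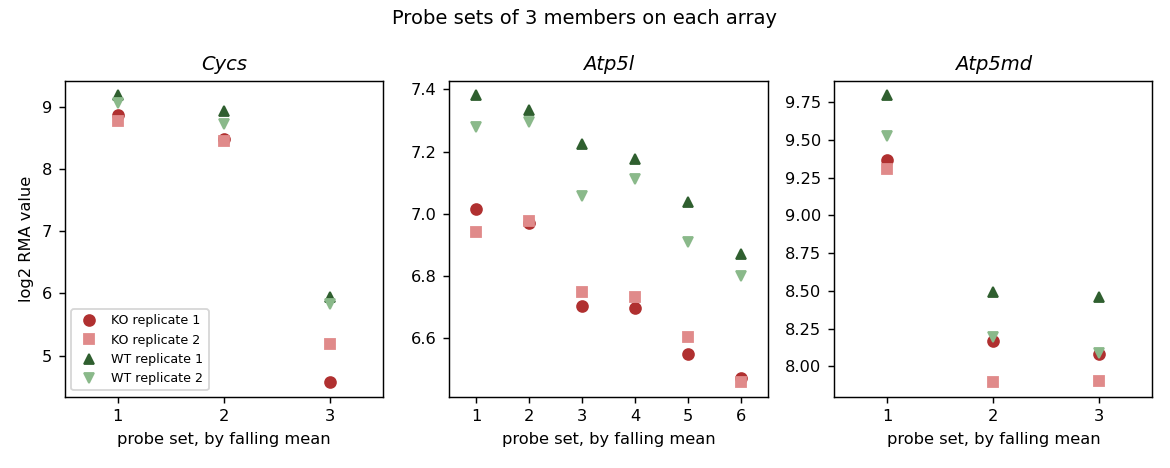
Log2 RMA values (y axis) on each of the 4 arrays for the probe sets of Cycs, Atp5l and Atp5md, numbered by falling mean (x axis; each panel has its own scale, which does not start at 0). In all probe sets of Cycs and Atp5l both KO arrays lie below both WT arrays, with the widest gap in the third probe set of Cycs, while the dimmer probe sets of Atp5md have groups that nearly touch.

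Complex IV reduces oxygen, with catalytic subunits made in the mitochondrion and smaller nuclear ones around them. The 11 nuclear genes of the general forms ranged from -0.21 to -0.016. Cox5a read 7.79 and 7.95 in the KO arrays and 8.11 and 8.04 in the WT arrays (-0.21, SE 0.098, limma adjusted p = 0.333). Cox6c read 9.90 and 9.93 against 10.12 and 10.05 (-0.17), and Cox7a2 read 7.67 and 7.73 against 7.93 and 7.81 (-0.17). These 3 and Cox5b, Cox6a1, Cox7b, Cox4i1 and Cox8a had both KO arrays below both WT arrays, 8 of 11 in all, as did 47.6% of genes of like level. Cox4i1, the largest of the nuclear subunits, differed by -0.085, Cox6a1 by -0.091, Cox7b by -0.090 and Cox8a by -0.083.

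Ndufa4 (-0.043), Cox6b1 (-0.035) and Cox7a2l (-0.016) completed the general forms, and their groups overlapped. Cox7a2l, which joins complexes III and IV into supercomplexes, had a dimmer probe set at -0.20. With Ndufa4 counted under complex I, the median of complex IV was -0.091 and that of complex I -0.095.

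Several complex IV subunits exist in isoforms of other tissues, which are made mainly there. The 8 isoforms had a median of 0.10, with 6 higher and 2 lower (under cyclic loess, further quantile normalization and median centring Ndufa4l2 was lower too), while genes of like level had a median of 0.057. Without KO replicate 1, WT replicate 1 or WT replicate 2 the median was 0.057, 0.064 or 0.059. The heart and muscle forms Cox6a2 and Cox7a1 read 5.45 and 5.10 against 4.88 and 5.23 (0.22), and 3.75 and 3.53 against 3.46 and 3.47 (0.18). Cox8b, also of heart and muscle, differed by 0.10, the lung form Cox4i2 by 0.15, the testis forms Cox7b2, Cox8c and Cox6b2 by 0.097, -0.076 and -0.11, and Ndufa4l2, which hypoxia induces, by 0.031. No isoform passed the test. Each isoform except Cox6b2 lay in the lower 6 of the 10 level classes, where the median of all genes was above 0. Counted with the isoforms, complex IV had a median of -0.076.

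Complex V makes ATP in its F1 head, which is driven by a rotating ring in the membrane. The 5 F1 subunits differed least among its parts, with a median of -0.039, which lay above that of genes of like level; all were lower in the KO arrays, but under cyclic loess Atp5a1, Atp5b and Atp5e were above 0. The catalytic beta subunit Atp5b read 11.25 and 11.33 in the KO arrays and 11.31 and 11.33 in the WT arrays (-0.029, SE 0.092, limma adjusted p = 0.910). The alpha subunit Atp5a1 differed by -0.039 and the epsilon subunit Atp5e by -0.035, while the gamma subunit Atp5c1 and the delta subunit Atp5d differed by -0.12 and -0.091.

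Atp5g1, Atp5g2 and Atp5g3 each encode the same mature ring subunit behind different import sequences, and they did not share a sign. Atp5g1 read 8.46 and 8.66 in the KO arrays and 8.70 and 8.70 in the WT arrays (-0.14), and Atp5g3 read 9.97 and 9.997 against 10.06 and 10.08 (-0.080). Atp5g2 read 9.92 and 10.08 against 9.89 and 9.91 (0.10, SE 0.097, limma adjusted p = 0.657). Its other 2 probe sets gave 0.11 and 0.13. For the probe sets used, the groups overlapped in none of the 3 genes, and none passed the test. The second probe set of Atp5g1 gave -0.097, and its groups overlapped, at 8.23 and 8.43 against 8.45 and 8.41. Of genes of like level, 48.7% had both KO arrays below both WT arrays and 13.7% had both above. The difference between the 3 genes was not tested.

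The lowest values of complex V were in its membrane part. Atp5l, subunit g, which takes part in joining ATP synthases into dimers, read 7.02 and 6.94 in the KO arrays and 7.38 and 7.28 in the WT arrays (-0.35, SE 0.095, limma adjusted p = 0.104), the smallest adjusted p of all members. Its 6 probe sets ranged from -0.43 to -0.34, and the fourth passed when the single-symbol probe sets were tested singly (limma adjusted p = 0.0460). Atp5md, a small subunit of the same region, read 9.36 and 9.31 against 9.79 and 9.52 (-0.32, limma adjusted p = 0.183), and its 3 probe sets ranged from -0.32 to -0.28. Atp5pb, subunit b of the stalk that holds the head still, read 9.30 and 9.30 against 9.66 and 9.46 (-0.26, limma adjusted p = 0.242). Its second probe set gave a smaller difference, -0.13. For Atp5l, Atp5md and Atp5pb the groups of the probe set used did not overlap. Of the 17 members of complex V, 8 had both KO arrays below both WT arrays, as did 47.6% of genes of like level.

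The remaining subunits of the membrane part and of the stalk lay on both sides of 0. Atp5h, subunit d of the stalk, read 10.25 and 10.15 in the KO arrays and 10.37 and 10.34 in the WT arrays (-0.16), and the small membrane subunit Atp5mpl read 9.41 and 9.40 against 9.48 and 9.54 (-0.11); the groups of both did not overlap. Atp5j, a further stalk subunit, differed by -0.049. Atp5j2, subunit f, differed by 0.062, Atp5k, subunit e, by 0.044, and OSCP (Atp5o), the link between stalk and head, by 0.0024, and all of them were below 0 with median centring. As groups, the 5 membrane subunits had a median of -0.11 with a range from -0.35 to 0.062, and the 4 stalk subunits had a median of -0.10.

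The count of members that passed depended on the fit. With each array centred on its median, 6 members passed (Atp5l, Atp5md, Cycs, Ndufaf1, Ndufaf4 and Ndufaf6), when 5.46% of all genes did. With an intensity trend and robust moderation of the variance, 4 passed (Atp5md, Atp5pb, Cycs and Ndufb6), when 4.17% of all genes did. All of these were lower in the KO arrays, and in both fits the share of the 91 members that passed was near that of all genes.

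The 18 members with several probe sets allow a check of single values. In 17 of them all probe sets had the same sign, and only Cycs had probe sets more than 0.3 apart. A further 6 probe sets carried a symbol with a member's prefix beside that of a related copy and were left out by the rule. They were those of Cox7c and Ndufb4, which have no single-symbol probe set and are not among the members, and an extra probe set of Ndufs5; they ranged from -0.26 to -0.015. Of the members, 9 lie on chromosome 7, which also carries Klf13, and their median was -0.035, against -0.11 for the other 82. The 9 include the tissue isoforms Cox6a2, Cox7a1, Cox8b and Cox6b2, at 0.22, 0.18, 0.10 and -0.11. The rest of the 9 were Ndufa3, Ndufc2, Uqcrc2, Cox6b1 and Ndufab1, at -0.26, -0.18, -0.17, -0.035 and 0.00089. The difference between the chromosomes was not tested.

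The presence of a promoter motif went with little difference. The median log2 fold change was -0.13 for the 29 members with a GC box upstream and -0.095 for the 45 without, and -0.13 for the 19 with an NRF1 string and -0.11 for the 55 without. Those with the ETS core had a median of -0.15 (13 members), against -0.095 without it (61 members). For CACCC the median was -0.12 with it (33 members) and -0.094 without it (41 members). Of the printed windows, only that of Ndufb6 holds the GC box, 2 times, and that of Atp5g2, which was higher in the KO arrays, has an NRF1 string as those of Cycs, Atp5l, Ndufb6 and Sdha do. These medians are descriptions and were not tested.

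Other mitochondrial lists lay in the same range as the members. All 16 measured genes of the citric acid cycle and pyruvate dehydrogenase were lower in the KO arrays and 0 passed, with a median of -0.11, or -0.040 with the class medians subtracted; Dld, Idh3a and Pdhb differed by -0.25, -0.23 and -0.24. Of 25 genes of other electron entry, ubiquinone synthesis and inner membrane carriers, 20 were lower and 0 passed. Their median was -0.12, or -0.065 with the class medians subtracted. The ubiquinone synthesis genes Coq5 and Coq7 differed by -0.44 and -0.29 and the electron transfer flavoprotein gene Etfb by -0.29.

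Of 17 regulators of mitochondrial gene expression, 16 were lower and 0 passed, with a median of -0.083, or 0.0028 with the class medians subtracted. The 3 genes with the smallest p are described. Polg2, the accessory subunit of the mitochondrial DNA polymerase, read 5.61 and 5.79 in the KO arrays and 6.08 and 6.21 in the WT arrays (-0.45, SE 0.10, limma adjusted p = 0.0598). Ssbp1, which coats single-stranded mitochondrial DNA, read 8.04 and 8.05 against 8.36 and 8.496 (-0.39, limma adjusted p = 0.0733). Tfb2m, a mitochondrial transcription factor, differed by -0.34. The other genes of the list ranged from -0.25 (Polg) to 0.053 (Twnk), with the nuclear factor Nrf1 at -0.13. Of the 13 subunits encoded by mitochondrial DNA, 0 had a single-symbol probe set under the names used, and they were not analysed here.

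**Figure D5:**
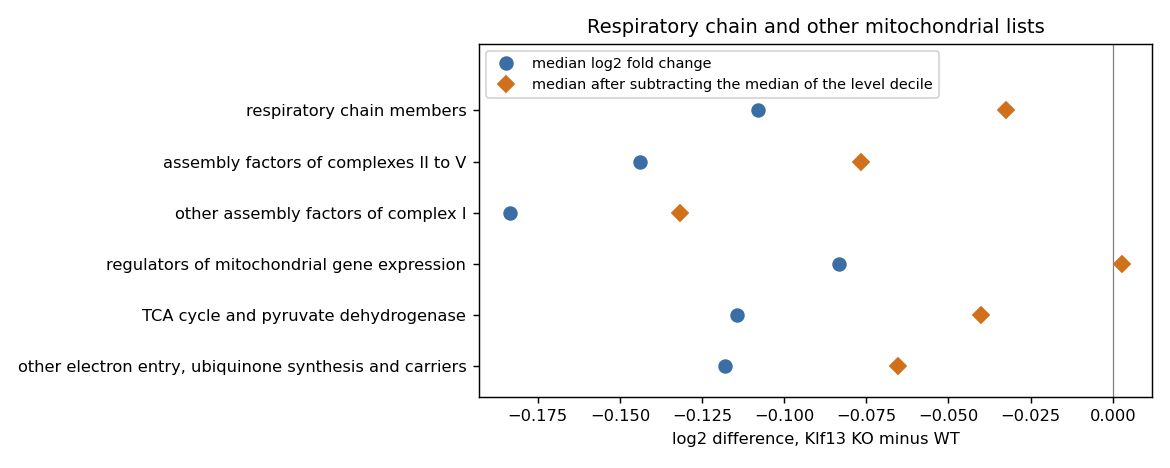
Median log2 fold change, KO minus WT (x axis), of the 91 members and of the other mitochondrial lists (y axis), before (circles) and after (diamonds) subtraction of the median of each gene's level class. The circles lie between -0.18 and -0.083, and the diamonds lie nearer to 0, between -0.13 and 0.0028.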

How the data were processed

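The authors deposited 1 log2 value per probe set for each of 4 arrays (2 KO, 2 WT); the submitters' processing notes list RMA and Partek, without versions. RMA corrects background and equalises the distributions of the arrays, so a shift common to most genes would be lost and differences of dim genes are compressed. Levels of different probe sets are not comparable. Per the labels' protocols, 200 ng of RNA with an integrity number above 9 was labelled by a whole-transcript method. The number of arrays limits the precision.

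Of 35556 probe sets, 21789 had 1 symbol, 1621 several and 12146 none listed; the former gave 19938 genes. KO and WT were compared with limma 3.58.1 in R 4.3.3 (lmFit, eBayes, two-sided, Benjamini-Hochberg over all genes, threshold 0.05, 8.06 prior degrees of freedom), tested on simulated data. "Like level" means the same class when all genes are divided into 10 classes by mean level over the 4 arrays. Shares of genes of like level are averaged over the members' classes. A median given for genes of like level is the median, over the members, of their class medians. The members and lists were chosen with earlier results of these data known. Named were core subunits, cytochrome c, paralogs, the 3 smallest p per complex and direction, the 3 smallest differences, members with discordant probe sets, and up to 3 genes per other list; other names complete a count or are marked. Replicate numbers were not used as pairs: deviations of same-numbered arrays correlated at 0.0074. Alternatives were another use of probe sets, the brighter genes alone, 3 normalizations, another variance model, a replicate block and each array left out.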

Additional observations from a re-analysis of the deposited data

How the results depend on the processing

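No member passed the main test, and 36 of the 55 members named by the rule kept their sign under every alternative run. Calls among the members numbered 1 with the mean of probe sets (Cycs), 6 with median centring, 4 with the variance trend and robust moderation, and 2 with single-symbol probe sets tested singly, which was chosen after seeing the data. With the replicate block 2 members passed (Atp5l and Ndufaf6) among 1187 genes; the numbers share no known source. Leaving out an array gave 0 to 1 (Ndufaf6, without WT replicate 2). Over all genes 448 passed, 1088 with median centring, 831 with the variance trend, and 264 to 1536 with an array left out (264 without KO replicate 1, 1536 without KO replicate 2, 277 without WT replicate 1).

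The median of the members was -0.047 after a further quantile normalization, -0.19 with median centring and -0.034 with cyclic loess, and -0.14 to -0.069 with an array left out. In the same order of settings the medians were -0.035, -0.19 and -0.033 for complex I, -0.062, -0.23 and -0.060 for II, -0.078, -0.25 and -0.081 for III, -0.014, -0.18 and -0.0086 for IV, and -0.023, -0.17 and -0.015 for V. With an array left out they ran from -0.15 to -0.069 for complex I, -0.18 to -0.097 for II, -0.21 to -0.12 for III, -0.14 to -0.086 for IV, -0.11 to -0.035 for V, -0.30 to -0.069 for the assembly factors and 0.057 to 0.13 for the tissue isoforms, whose median was 0.014 with median centring. Median centring lowers the KO values against WT, since the array medians over genes were 4.71 and 4.66 (KO) and 4.59 and 4.61 (WT). Both KO arrays lay below both WT arrays for 30 members after quantile normalization and 28 after cyclic loess. They lay above both WT arrays for 12 and 12, and for 1 with median centring. With an array left out 9 to 20 members lay above and 54 to 69 below, as groups then separate more easily.

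Signs turned for 19 of the named members, none of them called. Cyclic loess and further quantile normalization gave Atp5b 0.015 and 0.046, Atp5e 0.050 and 0.049, Cox6b1 0.044 and 0.028, Cox7a2l 0.070 and 0.060, Cyc1 0.042 and 0.030, Ndufa4 0.025 and 0.042, Ndufa4l2 -0.045 and -0.057, Ndufb11 0.073 and 0.058, and Ndufv1 0.026 and 0.012; cyclic loess gave Atp5a1 0.011 and Cox8a 0.0012, and the mean of probe sets gave Ndufb11 0.0094. Median centring gave Atp5j2 -0.024, Atp5k -0.042, Atp5o -0.084, Ndufa2 -0.0050, Ndufa4l2 -0.055 and Ndufab1 -0.085. With an array left out the ranges that crossed 0 were -0.087 to 0.0083 (Atp5a1), -0.072 to 0.013 (Atp5b), -0.079 to 0.0083 (Atp5e), -0.091 to 0.18 (Atp5k), -0.037 to 0.042 (Atp5o), -0.15 to 0.079 (Cox6b1), -0.14 to 0.10 (Cox7a2l), -0.052 to 0.26 (Cox8b), -0.24 to 0.085 (Cox8c), -0.081 to 0.0088 (Cyc1), -0.097 to 0.011 (Ndufa4), -0.089 to 0.15 (Ndufa4l2), -0.013 to 0.015 (Ndufab1), -0.037 to 0.017 (Ndufb11) and -0.033 to 0.28 (Ndufs4). The cause of these changes was not tested. In the main fit, with 2 arrays a group, a difference of 1.5-fold or more would lie outside the interval of all members except Ndufaf6. This holds for the brightest probe set of each gene, and intervals under the alternatives are not given here. Atp5l, at -0.35 in the main fit, was at -0.44 with median centring and -0.27 with cyclic loess. The dimmest probe set of Cycs was itself 2.01-fold lower in the KO arrays.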
